A study of Mus musculus with 96 samples.

Results

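Prostaglandin E2, labelled pGE2, was given to mouse bone marrow-derived macrophages before lipopolysaccharide (LPS), and its wells were set against wells that got the vehicle DMSO and the same LPS. The rule took the columns named pGE2 and DMSO on both plates, which gave 16 of the 96 libraries of the series, 8 in each group. The macrophages came from bone marrow of male mice (C57BL/6, aged 8 weeks) and were grown with MCSF supplied by conditioned medium, the growth factor that turns marrow progenitors into macrophages. In the pGE2 group the compound was added 30 min before LPS, a cell wall component of bacteria, and cells were lysed 4 h after LPS. The DMSO group had the vehicle in its place on the same schedule. Both groups filled wells E to H of plates 1 and 2. A NoStim group (8 libraries, wells A to D) received no LPS and has no stated vehicle, and the remaining 72 libraries hold 9 other compounds given with LPS. The sources used here state no dose, and pGE2 was given only together with LPS. The labels do not say whether wells were separate cultures or how many mice were used, so p-values measure the spread between wells, which may be technical.

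Prostaglandin E2 is a lipid made from arachidonic acid by the cyclooxygenases and the prostaglandin E synthases, and macrophages make it themselves after LPS. In macrophages it acts mainly through the receptors encoded by Ptger2 and Ptger4, which couple to the stimulatory G protein and raise cyclic AMP. Cyclic AMP activates protein kinase A and exchange factors, and protein kinase A phosphorylates CREB, a factor that binds the palindrome TGACGTCA or its core TGACG in promoters. The mediator is known for shifting the output of LPS-treated macrophages, with less tumour necrosis factor and interleukin 12 and more interleukin 10.

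Total counts per library ran from 209381 to 358367 in pGE2 wells and from 201162 to 323049 in DMSO wells, and the means did not differ by more than the spread (282487 ± 61224.6 in pGE2 and 265242 ± 35083.9 in DMSO, SD, n = 8 each, exact permutation test, two-sided, p = 0.496). The share taken by Rn45s, the ribosomal RNA precursor, averaged 17.5% in pGE2 wells and 19.4% in DMSO wells (exact permutation p = 0.371). Of 21 listed macrophage markers 17 were tested. Marker lists of other blood cells had low sums per well, between 105 and 183 CPM in pGE2 and between 117 and 174 CPM in DMSO for T cells, between 30.5 and 74.6 CPM in pGE2 and between 43.4 and 96.3 CPM in DMSO for B cells, and between 66.3 and 149 CPM in pGE2 and between 55.7 and 112 CPM in DMSO for neutrophils. Dendritic cell markers reached 48.1 CPM in pGE2 and 46.03 CPM in DMSO, those of mast cells and basophils 28.9 and 21.2 CPM, of natural killer cells 8.73 and 3.54 CPM, and of erythroid cells 0 and 3.10 CPM. Cd3e, Cd79a, Elane, Ncr1, Cpa3 and Hba-a1 had 0 counts in the pGE2, DMSO and NoStim libraries, while 5 members of the T cell, B cell and neutrophil lists were high enough to be tested and did not pass. Other members had counts but were too low for the test. Xcr1 of dendritic cells had 73 counts in pGE2 libraries and 52 in DMSO libraries, and Lck of T cells 6 and 8. Hdc of mast cells and basophils had 44 and 18, and S100a8 of neutrophils 26 and 5. The part of such cells in the results was not tested. Deviations of wells with the same letter correlated between plates (mean r 0.206 for pGE2 and 0.216 for DMSO over 1428 genes), so wells sharing a letter may hold related material, and counts with those wells summed are given beside the main count.

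pGE2 changed the expression of 555 of 4963 tested genes (11.2%) at an adjusted p under 0.05, with 258 higher (5.2%) and 297 lower (5.98%). The test was edgeR's quasi-likelihood F test on raw counts with Benjamini-Hochberg adjustment, which is behind every adjusted p below. Fold changes are log2 of pGE2 over DMSO with their standard error from the model, and levels are CPM (counts divided by the library total and multiplied by 1000000) scaled by TMM factors. The median log2 fold change over all tested genes was 0.0028, and TMM scaling sets it close to 0. Of the genes that rose, 19 reached the filter on low counts only through the pGE2 libraries, which favours a higher level there. Among those named here they are Dusp14, Flrt3, S1pr1, Ddit4, Dgat1, Gja1, Timp1, Mxi1 and Smox. Counts within a gene list include any of these 19 genes that it holds, and are read against the 11.2% of all tested genes called. The change was 2-fold or more for 106 of the genes that rose and 100 of those that fell. For 227 genes (4.57%) the 8 pGE2 wells and the 8 DMSO wells did not overlap, and 223 of these passed the test. With same-named wells summed, 496 genes passed, and 487 of them were among the 555. Each of the 555 genes had the same sign on both plates, and the test of a difference between plates called 0 genes with edgeR (125 at an unadjusted p under 0.05).

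**Figure D1:**
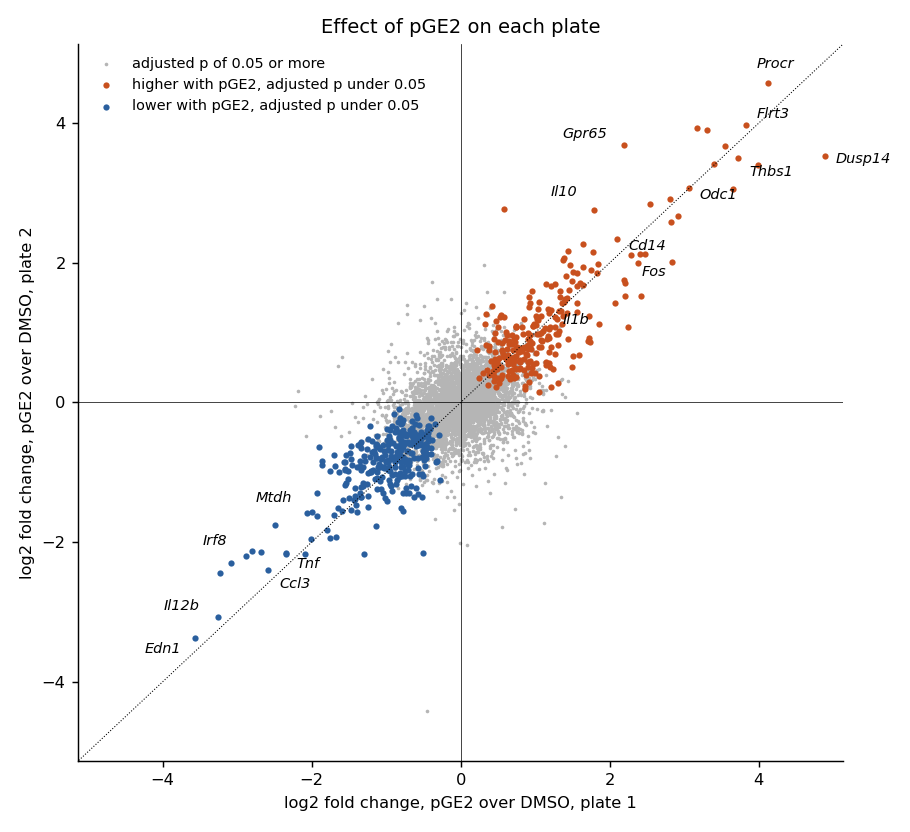
Log2 fold change of pGE2 over DMSO on plate 1 (horizontal) and plate 2 (vertical) for the 4963 tested genes, each point being a gene, with the dotted line marking equal change. The 258 genes that rose and the 297 that fell lie in the upper right and lower left parts, and Procr, Dusp14, Il12b and Edn1 lie at the far ends.

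Of 9 tested genes for prostaglandin synthesis and receptors 1 rose and 1 fell (22.2% called, against 11.2% of all tested genes). Ptges, the inducible prostaglandin E synthase, had 50.7, 70.5 and 105 CPM in pGE2 wells and 7.01, 23.4 and 38.95 CPM in DMSO wells (lowest, median and highest). All pGE2 wells lay above all DMSO wells, and the gene rose (1.65 ± 0.28, adjusted p = 1.21e-06). NoStim wells averaged 3.31 ± 3.79 CPM, so Ptges was higher with LPS and DMSO (2.69 ± 0.48, adjusted p = 1.00e-06, DMSO over NoStim) and higher again with pGE2. Ptgs2, the LPS-inducible cyclooxygenase, averaged 256 ± 36.99 CPM in pGE2 wells and 204 ± 43.4 CPM in DMSO wells (0.32 ± 0.21, adjusted p = 0.401), and did not pass. Ptger4, the receptor gene, had 15.02, 21.3 and 42.7 CPM in pGE2 wells and 33.5, 43.5 and 56.7 CPM in DMSO wells. All pGE2 wells but 1 were below the DMSO wells, and the gene fell (-0.95 ± 0.27, adjusted p = 0.00743). The call was lost without the wells lettered G (-0.74 ± 0.32, adjusted p = 0.153). Ptger2, the other receptor that raises cyclic AMP, was too low for the test, with 58 counts in all pGE2 libraries, 46 in DMSO and 33 in NoStim. Ptger3, whose product lowers cyclic AMP, had 0 counts in pGE2 and in DMSO libraries.

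Of 27 tested genes that make, break down or relay cyclic AMP 3 rose and 1 fell (14.8% called), which is close to the share of all tested genes, and the median was 0.12. Pde4b, a phosphodiesterase that degrades cyclic AMP, rose slightly (591 ± 85.5 CPM in pGE2 and 423 ± 49.7 CPM in DMSO, 0.48 ± 0.12, adjusted p = 0.00194). That call was lost without the wells lettered F (adjusted p = 0.122). Rgs2, which shortens signalling by G proteins, averaged 172 ± 38.1 CPM in pGE2 wells, 63.4 ± 7.46 CPM in DMSO wells and 444 ± 63.4 CPM in NoStim wells. It rose (1.42 ± 0.20, adjusted p = 3.35e-09) but stayed below its level without LPS. Rgs16, another regulator of this family, fell (2.42 ± 3.02 CPM in pGE2 and 19.8 ± 10.004 CPM in DMSO, -2.77 ± 0.54, adjusted p = 2.93e-05). Gnas, which encodes the stimulatory G protein subunit, did not pass (0.25 ± 0.11, adjusted p = 0.152).

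The gene lists were chosen with earlier results of these data known, so their counts and ranks are descriptions and no independent support. Genes known to respond to cyclic AMP formed the list with the most members changed in one direction. Of 25 tested members 16 rose (5.2% of all tested genes did) and 3 fell (5.98%), and the median was 0.96. In 13 members all pGE2 wells lay above all DMSO wells, as in 2.36% of all tested genes. The summed level of the 41 listed genes lay between 7634 and 9790 CPM in pGE2 wells and between 3265 and 4708 CPM in DMSO wells. Odc1, which makes the first polyamine, had 850.3, 963 and 1339.6 CPM in pGE2 wells and 78.1, 119 and 167 CPM in DMSO wells, with no overlap (3.07 ± 0.16, adjusted p = 6.71e-37). Thbs1, the matrix glycoprotein thrombospondin, had 382, 492 and 555 CPM in pGE2 wells and 21.2, 37.9 and 58.6 CPM in DMSO wells (3.61 ± 0.21). NoStim wells averaged 57.9 ± 26.5 CPM, and the gene was lower in DMSO wells than in these (-0.61 ± 0.25, adjusted p = 0.0494, DMSO over NoStim). The NoStim wells ran from 31.7 to 99.7 CPM and overlapped the DMSO wells. Cd14, the surface receptor that hands LPS to its sensor, had 1878, 2143 and 2904 CPM in pGE2 wells and 368, 483 and 606 CPM in DMSO wells (2.22 ± 0.13). These 3 genes were above every DMSO well in each pGE2 well.

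Transcription factor genes of the same list moved both ways. Fos, an immediate early gene whose promoter is a classical target of CREB, had 95.99, 145 and 182 CPM in pGE2 wells and 16.8, 30.3 and 52.05 CPM in DMSO wells, with no overlap (2.19 ± 0.29, adjusted p = 1.88e-09). Fosl2, which encodes a partner in the same AP-1 complex, also rose (1.47 ± 0.18), as did Nfil3 (1.25 ± 0.20), a repressor of interleukin 12 in macrophages, Klf4 (1.11 ± 0.26) and Cebpb (0.83 ± 0.20). Atf3, a repressor that LPS induces, had 27.96, 71.6 and 112 CPM in pGE2 wells and 186, 203 and 308 CPM in DMSO wells. Every pGE2 well lay below every DMSO well, and the gene fell (-1.58 ± 0.17, adjusted p = 1.80e-14). Cebpd (-1.21 ± 0.22) and Junb (-0.40 ± 0.11, adjusted p = 0.00549) fell as well. Nr4a1, a nuclear receptor gene that cyclic AMP induces early and briefly in many cells, was low, at 7.56 ± 4.62 CPM in pGE2 wells and 2.84 ± 3.54 CPM in DMSO wells, and did not pass (1.23 ± 0.73, adjusted p = 0.330).

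A further 16 members of this list were below the filter on low counts, and 4 of them passed when every gene with a count was tested (16022 genes). In that test 548 of the 16022 genes passed. The 4 members were named after their values were seen. Areg, an epidermal growth factor family ligand, had 41 counts in pGE2 libraries and 1 in DMSO libraries (adjusted p = 3.11e-06). Nr4a2, a sister of Nr4a1, had 47 counts in pGE2 and 4 in DMSO (adjusted p = 2.12e-05), and Fosb, a Fos family member, had 28 and 1 (adjusted p = 0.000219). Pde4d, a phosphodiesterase gene, had 13 counts in pGE2 libraries and 0 in DMSO libraries (adjusted p = 0.00280).

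The promoters of 6 genes are shown because they belong to genes that moved strongly or stand for the CREB class. Each covers 250 bases before to 50 after a RefSeq start of the gene on its own strand (GRCm38.p6, the same assembly as mm10), and capitals mark TGACG on either strand. For Dusp1 and Atf3 the window lies inside the longer gene of GENCODE M21, whose annotated start is elsewhere. Atf3, the last, fell, and the other genes rose.
Dusp1: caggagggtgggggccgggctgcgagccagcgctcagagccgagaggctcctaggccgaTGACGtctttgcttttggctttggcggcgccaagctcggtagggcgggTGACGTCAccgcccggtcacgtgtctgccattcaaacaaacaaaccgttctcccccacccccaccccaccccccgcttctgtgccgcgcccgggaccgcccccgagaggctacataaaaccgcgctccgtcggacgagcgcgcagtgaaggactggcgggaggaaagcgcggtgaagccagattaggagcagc
Fos: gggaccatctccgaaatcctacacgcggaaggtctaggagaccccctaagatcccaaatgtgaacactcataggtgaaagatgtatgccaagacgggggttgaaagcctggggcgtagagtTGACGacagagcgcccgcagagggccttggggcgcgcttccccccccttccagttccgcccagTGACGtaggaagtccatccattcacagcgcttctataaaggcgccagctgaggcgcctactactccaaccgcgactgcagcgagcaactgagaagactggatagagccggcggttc
Rgs2: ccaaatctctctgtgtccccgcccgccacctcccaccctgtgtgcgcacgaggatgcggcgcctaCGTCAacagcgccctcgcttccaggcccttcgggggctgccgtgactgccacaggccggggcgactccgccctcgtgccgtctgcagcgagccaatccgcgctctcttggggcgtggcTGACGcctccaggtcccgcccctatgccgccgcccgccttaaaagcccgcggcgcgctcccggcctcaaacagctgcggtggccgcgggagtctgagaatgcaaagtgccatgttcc
Odc1: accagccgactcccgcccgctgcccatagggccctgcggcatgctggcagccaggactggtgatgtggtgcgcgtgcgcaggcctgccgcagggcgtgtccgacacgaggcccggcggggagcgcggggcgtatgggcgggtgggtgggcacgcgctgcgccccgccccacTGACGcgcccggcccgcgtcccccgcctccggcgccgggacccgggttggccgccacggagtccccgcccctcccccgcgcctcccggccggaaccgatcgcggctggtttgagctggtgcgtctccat
Procr: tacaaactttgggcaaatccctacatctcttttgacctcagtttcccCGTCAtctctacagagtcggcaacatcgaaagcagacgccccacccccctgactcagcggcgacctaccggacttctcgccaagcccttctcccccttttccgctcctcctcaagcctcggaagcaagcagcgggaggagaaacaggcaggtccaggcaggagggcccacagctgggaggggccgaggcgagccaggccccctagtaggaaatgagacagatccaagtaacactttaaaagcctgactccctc
Atf3: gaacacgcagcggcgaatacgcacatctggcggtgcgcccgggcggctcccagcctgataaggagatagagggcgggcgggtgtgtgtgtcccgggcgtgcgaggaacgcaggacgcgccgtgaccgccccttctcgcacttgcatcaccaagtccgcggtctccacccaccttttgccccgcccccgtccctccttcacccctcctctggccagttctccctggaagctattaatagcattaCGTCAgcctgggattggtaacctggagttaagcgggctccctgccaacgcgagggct
The windows lie at chr17:26508423-26508722 (reverse strand), chr12:85473640-85473939 (forward strand), chr1:144004100-144004399 (reverse strand), chr12:17544623-17544922 (forward strand), chr2:155750967-155751266 (forward strand) and chr1:191183284-191183583 (reverse strand). Dusp1 held 3 copies of TGACG, Fos 2, Rgs2 2, and Odc1, Procr and Atf3 1 each. Among genes found in the promoter table, 46.9% of those that rose and 27.8% of those that fell held TGACG. These 6 therefore do not stand for all changed genes. The palindrome TGACGTCA stood in the Dusp1 window and in none of the other 5, and the AP-1 motif TGANTCA stood once in the Procr window and in none of the other 5.

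Across the promoters of the genes that rose, 41.5% (105 of 253, from 196 genes found in the table) held TGACG on either strand. The share was 22.8% for the genes that fell (70 of 307, from 223 genes), 33.2% for all tested genes and 20.8% for all promoters in the table. For the full palindrome TGACGTCA, which contains TGACG on both strands, the shares were 2.77%, 1.95%, 3.32% and 1.79% in the same order. The AP-1 motif TGANTCA stood in 9.09% of promoters of genes that rose and 9.12% of those of genes that fell, against 5.75% for all tested genes. A kappa B-like motif stood in 4.35% and 3.26%, against 2.12%. Among genes changed 2-fold or more, TGACG stood in 35.6% of promoters of those that rose and 21% of those that fell, TGACGTCA in 1.98% and 1%, TGANTCA in 11.9% and 6%, and the kappa B-like motif in 3.96% and 1%. The share of TGACG in genes that rose is thus closer to that of all tested genes when small changes are left out. These shares are descriptions with no test, and a match does not show that a factor binds there.

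**Figure D2:**
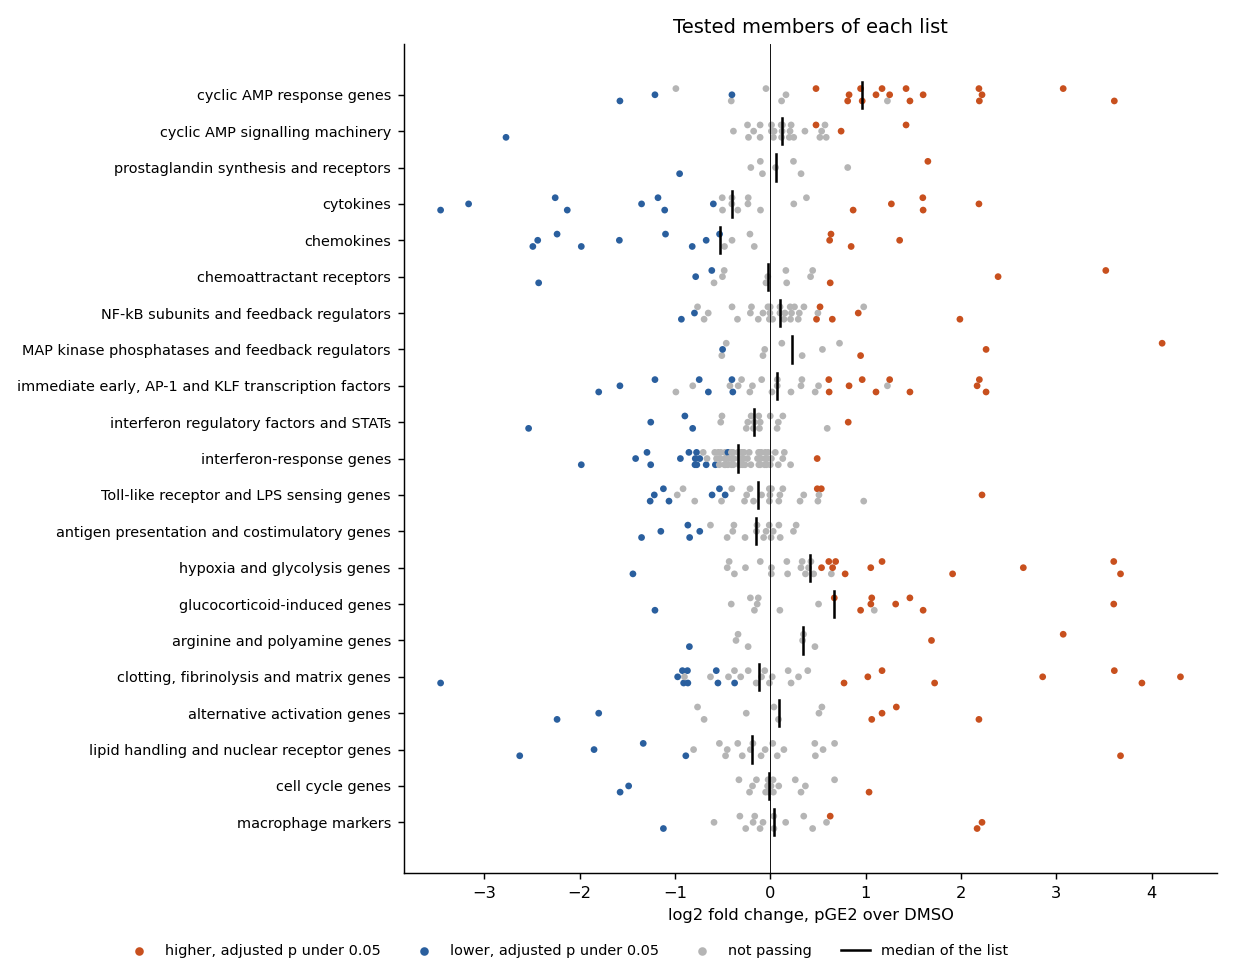
Log2 fold change of pGE2 over DMSO for every tested member of 21 gene lists, with a point for each gene and a black bar at the median of each list. The median is 0.96 for cyclic AMP response genes, -0.53 for chemokines and -0.34 for interferon-response genes.

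Cytokine genes split in direction. Of 23 tested genes 5 rose (21.7%, against 5.2% of all tested genes) and 8 fell (34.8%, against 5.98%). Il10, the anti-inflammatory cytokine gene, had 129, 180.0 and 205 CPM in pGE2 wells and 11.6, 38.2 and 62.99 CPM in DMSO wells, with no overlap (2.19 ± 0.23, adjusted p = 1.41e-14). Il1rn, which encodes the natural antagonist of interleukin 1, averaged 1047 ± 72.5 CPM in pGE2 wells and 346 ± 83.9 CPM in DMSO wells (1.60 ± 0.15). Il1b, the interleukin 1 beta gene, had 4845, 5845 and 7031 CPM in pGE2 wells and 2060.2, 2414 and 3297 CPM in DMSO wells, and rose (1.27 ± 0.13, adjusted p = 2.02e-14). The agonist and the antagonist of the same receptor therefore both rose, while the other agonist gene Il1a did not pass (-0.40 ± 0.27, adjusted p = 0.417). Il6 rose (138 ± 38.3 CPM in pGE2 and 75.1 ± 13.1 CPM in DMSO, 0.87 ± 0.20, adjusted p = 0.000491). Hbegf, a growth factor gene of the epidermal growth factor family named here after its value was seen, was the last of the 5 (1.60 ± 0.40, adjusted p = 0.00183), and its call was lost without the wells lettered F (1.12 ± 0.44, adjusted p = 0.102).

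Tnf, the tumour necrosis factor gene, had 188, 230.0 and 300.4 CPM in pGE2 wells and 1006, 1120.0 and 1204 CPM in DMSO wells. The highest pGE2 well was far below the lowest DMSO well, and the gene fell (-2.26 ± 0.14, adjusted p = 5.89e-30). Il12b, the shared subunit of interleukins 12 and 23, had 19.5, 28.97 and 37.9 CPM in pGE2 wells and 235, 263 and 365 CPM in DMSO wells (-3.17 ± 0.21, adjusted p = 7.71e-29). NoStim wells averaged 22.6 ± 16.7 CPM, and the difference of pGE2 wells from them did not pass (0.36 ± 0.28, adjusted p = 0.347). Il27, a subunit of another member of the interleukin 12 family, fell (-2.13 ± 0.57, adjusted p = 0.00429), as did Tnfsf9, the ligand of the costimulator 4-1BB (-1.35 ± 0.17). Edn1, which encodes the vasoconstrictor endothelin and was listed with the cytokines, had the lowest fold change among the named genes, with 3.08, 15.7 and 21.8 CPM in pGE2 wells and 131, 154 and 224 CPM in DMSO wells (-3.46 ± 0.33, adjusted p = 8.14e-15). Among cytokine genes below the filter, Il33, an alarmin of the interleukin 1 family, had 100 counts in pGE2 libraries, 9 in DMSO and 7 in NoStim, and passed when all genes with a count were tested (adjusted p = 4.40e-09). It was named after its value was seen.

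Chemokine genes mostly fell. Of 17 tested genes 4 rose (23.5%, against 5.2% of all tested genes) and 9 fell (52.9%, against 5.98%), with a median of -0.53. In 8 of the 17 all pGE2 wells lay below all DMSO wells, as in 2.22% of all tested genes. The summed level of the 32 listed genes lay between 13060 and 15920 CPM in pGE2 wells and between 22770 and 29440 CPM in DMSO wells. Ccl3, which draws monocytes and T cells, had 419, 508 and 558 CPM in pGE2 wells and 2302, 2661 and 3831 CPM in DMSO wells, with no overlap (-2.49 ± 0.16, adjusted p = 4.47e-24). Its neighbour Ccl4, a ligand of the same receptor, averaged 1849.9 ± 217 CPM in pGE2 wells and 5559 ± 709.9 CPM in DMSO wells (-1.58 ± 0.13). Ccl12 (-2.44 ± 0.33), Ccl22 (-2.24 ± 0.40), which attracts T cells, and Cxcl9 (-1.98 ± 0.22), which interferons induce, fell too. Ccl5, which attracts T cells as well, did not pass (2135 ± 465 CPM in pGE2 and 2833 ± 521 CPM in DMSO, -0.40 ± 0.17, adjusted p = 0.131).

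The 4 chemokine genes that rose were Cxcl3, Cxcl2, Cxcl1 and Pf4, the last 3 named after their values were seen. The products of the first 3 attract neutrophils through Cxcr2. Cxcl3 had 66.1, 108 and 188 CPM in pGE2 wells and 24.5, 38.9 and 71.2 CPM in DMSO wells, and the groups overlapped only at their ends (1.36 ± 0.21, adjusted p = 8.17e-08). Cxcl2 averaged 1928 ± 322 CPM in pGE2 wells and 1068 ± 90.1 CPM in DMSO wells, with no overlap (0.85 ± 0.19, adjusted p = 0.000438). Cxcl1 varied widely between wells, from 33.2 to 425 CPM in pGE2 and from 38.6 to 208 CPM in DMSO (0.64 ± 0.19, adjusted p = 0.0134), and its call was lost without the wells lettered G (adjusted p = 0.153), without the plate 1 wells G alone (adjusted p = 0.0892) and with no plate term (adjusted p = 0.420). The call for Pf4 (0.62 ± 0.18, adjusted p = 0.00933) was lost without the wells lettered H (adjusted p = 0.113).

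**Figure D3:**
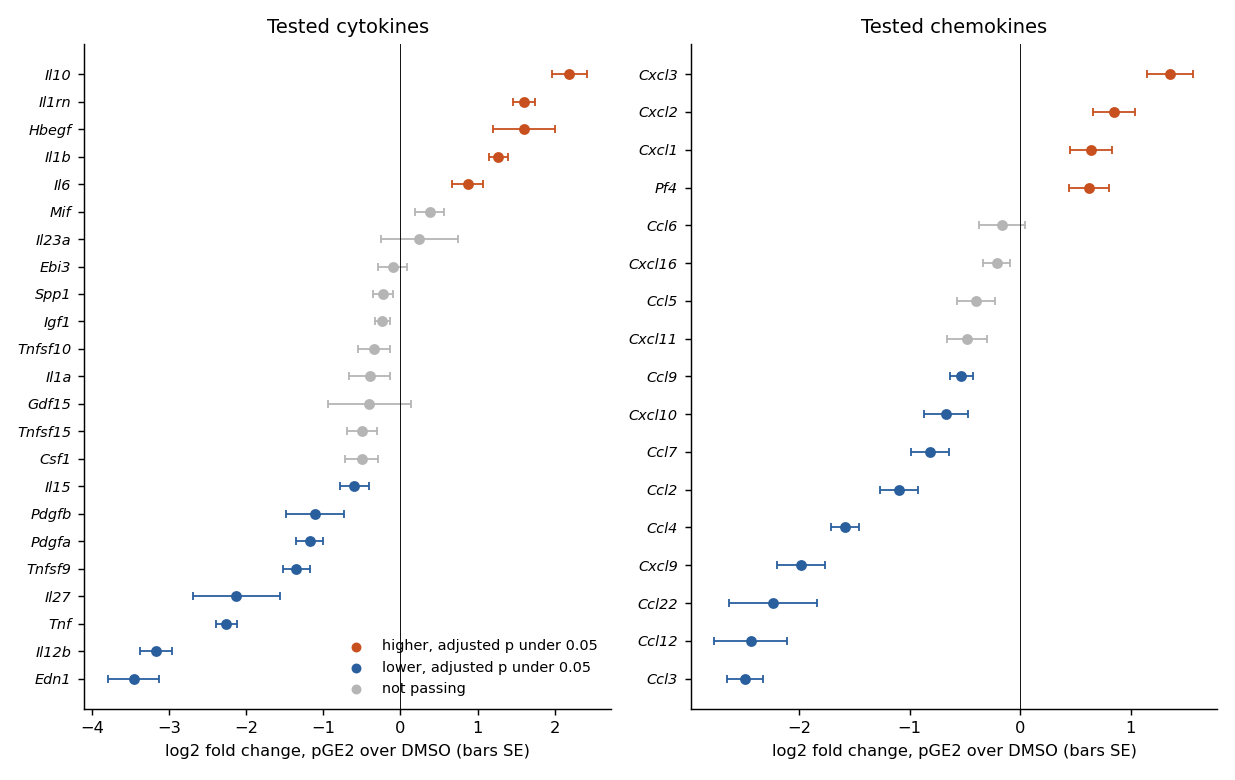
Log2 fold change of pGE2 over DMSO, with the standard error of the fit as bars, for the 23 tested cytokine genes (left) and the 17 tested chemokine genes (right). Il10 is at the top of the cytokines at 2.19 and Edn1 at the bottom at -3.46, and among chemokines Cxcl3 is at 1.36 and Ccl3 at -2.49.

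S1pr1, the receptor for sphingosine 1-phosphate, had 97.3, 146 and 163 CPM in pGE2 wells and 3.51, 10.5 and 24.8 CPM in DMSO wells, with no overlap (3.52 ± 0.30, adjusted p = 1.49e-20). Adora2b, an adenosine receptor that raises cyclic AMP, averaged 133 ± 26.5 CPM in pGE2 wells and 24.4 ± 14.8 CPM in DMSO wells (2.39 ± 0.25). Gpr65, a proton-sensing receptor that also raises cyclic AMP, had 145, 248 and 359.8 CPM in pGE2 wells and 13.01, 32.7 and 52.6 CPM in DMSO wells (2.90 ± 0.24, adjusted p = 1.29e-20). Fpr2, a receptor for formyl peptides, fell (9.32 ± 5.63 CPM in pGE2 and 50.9 ± 19.02 CPM in DMSO, -2.43 ± 0.37). Gpr65 was not in the list of chemoattractant receptors. Of the 15 tested genes in that list 3 rose and 3 fell (40% called, against 11.2% of all tested genes), with a median of -0.026.

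Procr, the receptor of the anticoagulant protein C, had the highest fold change of the named genes. The gene lies on chromosome 2 (155751117 to 155755471, mm10, forward strand, GENCODE M21). It had 406, 508 and 751 CPM in pGE2 wells and 14.03, 24.6 and 61.9 CPM in DMSO wells, and the lowest pGE2 well was several times the highest DMSO well (4.30 ± 0.23, adjusted p = 1.29e-36). Flrt3, an adhesion protein gene, had 118, 175 and 226 CPM in pGE2 wells and 3.10, 10.6 and 26.6 CPM in DMSO wells (3.90 ± 0.29). Timp1, an inhibitor of matrix metalloproteinases (2.86 ± 0.31), and Ednrb, an endothelin receptor (1.72 ± 0.24), rose while the ligand gene Edn1 fell. Of 32 tested genes for clotting, fibrinolysis and matrix 8 rose and 9 fell (53.1% called, against 11.2% of all tested genes). The median was -0.12. Thbd, which encodes thrombomodulin, the partner of Procr in protein C activation, was below the filter at 39 counts in pGE2 libraries, 6 in DMSO and 26 in NoStim. It passed when all genes with a count were tested (adjusted p = 0.00450) and was named after its value was seen.

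Several of these genes are also expressed by endothelial cells, so the markers of that type were read beside them. The 10 listed endothelial markers summed to at most 19.0 CPM in pGE2 wells and 24.8 CPM in DMSO wells, and Pecam1, Tek, Tie1, Cldn5, Emcn and Esam had 0 counts in both groups. Kdr had 9 counts in pGE2 libraries and 16 in DMSO libraries, Vwf 6 and 6, Cdh5 2 and 1, and Egfl7 0 and 4. The 9 fibroblast and stromal markers summed to at most 78.0 CPM in pGE2 wells and 19.3 CPM in DMSO wells. Acta2 had 30 counts in 5 pGE2 libraries, up to 18 in a single one, and 8 counts in DMSO libraries, and Col3a1, Lum, Pdgfra and Postn had 0 counts.

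Among regulators of the kinase cascades below Toll-like receptors, Dusp14, a phosphatase gene, had 56.9, 93.9 and 121 CPM in pGE2 wells and 0, 5.48 and 11.6 CPM in DMSO wells (4.11 ± 0.39, adjusted p = 6.64e-17). At least 1 DMSO well had no count, and the lowest pGE2 well lay well above the highest DMSO well. Dusp1, the phosphatase that switches off p38 and JNK (0.95 ± 0.16, adjusted p = 5.08e-07), and Ier3, an immediate early gene (2.26 ± 0.18), rose as well. Of 12 tested members of this list 3 rose and 1 fell (33.3% called, against 11.2% of all tested genes). The 1 that fell was Mapkapk2 (-0.50 ± 0.15, adjusted p = 0.0169). Of the 3 that rose, Dusp14 reached the filter only through the pGE2 libraries. The call for Mapkapk2 was lost with same-named wells summed (adjusted p = 0.0733) and without the wells lettered E or G (adjusted p = 0.101 and 0.113). Of 34 tested genes of the NF-kB system 5 rose (14.7%, against 5.2% of all tested genes) and 2 fell (5.88%, against 5.98%), with a median of 0.10. Nfkbia, the inhibitor that NF-kB itself induces, averaged 4958 ± 459.7 CPM in pGE2 wells and 5733 ± 229 CPM in DMSO wells (-0.21 ± 0.10, adjusted p = 0.183), against 684 ± 73.7 CPM in NoStim wells. Nfkbiz, a nuclear co-activator of a subset of LPS genes, fell (-0.80 ± 0.17), and Zfp36l2, an RNA-binding protein that speeds mRNA decay, rose (1.99 ± 0.32).

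Of 20 tested interferon regulatory factors, STATs and receptors 1 rose and 4 fell (20%, against 5.98% of all tested genes), with a median of -0.17. Irf8, a lineage factor of monocytes that cooperates in Il12b transcription, had 52.4, 86.3 and 129 CPM in pGE2 wells and 382, 508 and 673 CPM in DMSO wells, with no overlap (-2.54 ± 0.15, adjusted p = 2.00e-33). NoStim wells averaged 268 ± 44.6 CPM, and pGE2 wells were lower than these too (-1.57 ± 0.15, adjusted p = 8.87e-18). Irf1 had 185, 247 and 275 CPM in pGE2 wells and 459, 567 and 744 CPM in DMSO wells (-1.25 ± 0.16, adjusted p = 2.36e-10). Irf5 (-0.81 ± 0.16) and the interferon gamma receptor gene Ifngr1 (-0.90 ± 0.16) fell, and Stat3, which carries the interleukin 10 signal, rose (0.82 ± 0.14, adjusted p = 8.88e-07). Of 71 tested interferon-response genes 1 rose (1.41%, against 5.2% of all tested genes) and 14 fell (19.7%, against 5.98%). The median was -0.34 against 0.0028 over all genes. Fam26f (-1.41 ± 0.17), the GTPase genes Tgtp1 (-1.29 ± 0.19) and Iigp1 (-1.25 ± 0.20) and the antiviral gene Ifit2 (-0.94 ± 0.19) were among those that fell. Members with higher counts did not pass, such as Rsad2 (-0.46 ± 0.18, adjusted p = 0.0773) and Ifit1 (-0.39 ± 0.14, adjusted p = 0.0638), although all pGE2 wells lay below all DMSO wells in both genes.

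Of 32 tested genes of LPS sensing 3 rose, Cd14 among them (9.38%, against 5.2% of all tested genes), and 7 fell (21.9%, against 5.98%), with a median of -0.13. Pycard, the inflammasome adaptor, had 27.7, 77.2 and 85.4 CPM in pGE2 wells and 123, 136 and 174 CPM in DMSO wells, with no overlap (-1.06 ± 0.17, adjusted p = 1.25e-07). Tlr7, a sensor of single-stranded RNA (-1.26 ± 0.30, adjusted p = 0.000785), and the scavenger receptor gene Msr1 (-1.12 ± 0.16, adjusted p = 3.70e-09) fell. Tlr2, a sensor of bacterial lipopeptides, did not pass (-0.21 ± 0.12, adjusted p = 0.303). Of 21 tested genes for antigen presentation and costimulation 0 rose and 5 fell (23.8%, against 5.98% of all tested genes) by edgeR's test. These were Tnfsf9, the early activation marker gene Cd69 (-1.15 ± 0.16), the adhesion molecule gene Icam1 (-0.86 ± 0.14), Cd48 (-0.85 ± 0.25, adjusted p = 0.00997, but 0.100 without the wells lettered G and 0.108 without those lettered H) and the costimulatory receptor gene Cd40 (-0.74 ± 0.15).

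Genes of hypoxia and glycolysis rose in part. Of 28 tested members 11 rose (39.3%, against 5.2% of all tested genes) and 1 fell (3.57%, against 5.98%), with a median of 0.41. Of the 11 that rose, Mxi1 and Ddit4 reached the filter only through the pGE2 libraries. Hilpda, a lipid droplet protein that hypoxia induces, had 78.5, 106 and 139 CPM in pGE2 wells and 0, 9.65 and 15.98 CPM in DMSO wells, with no overlap (3.67 ± 0.33, adjusted p = 1.08e-18). Mxi1, an antagonist of Myc, had 66.1, 94.5 and 139.6 CPM in pGE2 wells and 4.34, 12.1 and 42.6 CPM in DMSO wells (2.66 ± 0.29, adjusted p = 1.16e-13). Ddit4, an inhibitor of the growth kinase mTORC1 (3.60 ± 0.39), and Slc16a3, the lactate exporter (1.91 ± 0.27), rose too, as did the angiogenic factor gene Vegfa (1.17 ± 0.30, adjusted p = 0.00273, and 0.109 without the wells lettered H). Gapdh, a glycolytic enzyme, did not pass (0.18 ± 0.11, adjusted p = 0.365). Cited2, which limits the activity of hypoxia-inducible factors, fell (117 ± 16.6 CPM in pGE2 and 320.2 ± 31.7 CPM in DMSO, -1.44 ± 0.14). In the arginine and polyamine list 2 of 9 tested genes rose and 1 fell (33.3% called, against 11.2% of all tested genes). Of the 2 that rose, Smox reached the filter only through the pGE2 libraries. Smox, the spermine oxidase gene, rose with Odc1 (1.69 ± 0.33, adjusted p = 2.33e-05), while Sat1, which starts polyamine breakdown, fell (-0.85 ± 0.21, adjusted p = 0.00134, and 0.0856 without the wells lettered H). Nos2, the inducible nitric oxide synthase gene, was below the filter, with 23 counts in pGE2 libraries and 70 in DMSO libraries. It was lower when all genes with a count were tested (adjusted p = 0.000318), and was named after its value was seen.

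In the glucocorticoid-induced list 8 of 17 tested genes rose (47.1%, against 5.2% of all tested genes) and 1 fell, with a median of 0.67, and in 7 all pGE2 wells lay above all DMSO wells. The metallothionein genes Mt1 (1.46 ± 0.17) and Mt2 (1.32 ± 0.17), which bind zinc and copper, and the transglutaminase gene Tgm2 (1.06 ± 0.16) were among those that rose. Il1rn, Dusp1 and Ddit4 are members of this list as well, and Ddit4 reached the filter only through the pGE2 libraries. Of 13 tested genes of alternative activation 4 rose and 2 fell (46.15% called, against 11.2% of all tested genes). Il4ra, the interleukin 4 receptor chain, was among the higher ones (1.32 ± 0.17). Ppargc1b, a coactivator of mitochondrial genes, had 3.004, 6.32 and 19.1 CPM in pGE2 wells and 34.7, 54.1 and 74.3 CPM in DMSO wells (-2.63 ± 0.32, adjusted p = 7.84e-12). Ch25h, which makes an oxysterol with antiviral action, fell (-1.85 ± 0.25), and Dgat1, which completes triglyceride synthesis, rose (3.40 ± 0.39). Dgat1 was not in the list for lipid handling and nuclear receptors. Of the 22 tested genes in that list 1 rose and 4 fell (22.7% called, against 11.2% of all tested genes). Cdkn1a, the cell cycle inhibitor p21, had 1831, 2157 and 2457 CPM in pGE2 wells and 5411, 5983 and 6533 CPM in DMSO wells (-1.49 ± 0.11, adjusted p = 2.26e-24). Cdkn1b, the related inhibitor p27, rose (1.04 ± 0.20), and the chromatin protein gene Hmgb2 fell (-1.58 ± 0.32). Of 19 tested cell cycle genes 1 rose and 2 fell (15.8% called), which is close to the share of all tested genes (11.2%). Among macrophage markers 3 of 17 tested rose and 1 fell (23.5% called, against 11.2% of all tested genes).

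Genes outside the lists were also among those with the largest changes. Stk17b, a death-associated kinase gene, averaged 178 ± 40.2 CPM in pGE2 wells and 15.8 ± 10.04 CPM in DMSO wells (3.41 ± 0.26). Gja1, which encodes a gap junction protein (2.80 ± 0.32), and Mid1, a ubiquitin ligase gene (2.72 ± 0.30), rose as well. Fgl2, a secreted fibrinogen-like protein gene, averaged 143 ± 56.7 CPM in pGE2 wells and 600.4 ± 144 CPM in DMSO wells (-2.12 ± 0.17), and the stress-response gene Nupr1 fell (-1.65 ± 0.22).

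The NoStim wells were set beside these changes. They got no LPS, have no stated vehicle and were wells A to D. LPS, vehicle and well position therefore cannot be told apart in comparisons with NoStim. DMSO over NoStim called 1790 genes (36.1%), and pGE2 over NoStim called 1695 genes (34.2%). The comparisons share wells, so each level is given side by side. One set of genes was higher in DMSO than in NoStim wells and stood higher again with pGE2. Il1b averaged 5992 ± 729.8 CPM in pGE2 wells, 2486 ± 421 CPM in DMSO wells and 151 ± 56.6 CPM in NoStim wells. Il10 averaged 172 ± 26.6, 36.96 ± 17.2 and 5.20 ± 5.01 CPM in the same groups. A further set was higher in DMSO than in NoStim wells and stood near the NoStim level with pGE2. For Mtdh, which encodes a membrane protein of the endoplasmic reticulum, the averages were 601 ± 115 CPM in pGE2, 2051 ± 125 CPM in DMSO and 609 ± 75.5 CPM in NoStim wells. Neither Mtdh (-0.02 ± 0.10, adjusted p = 0.879) nor Edn1 (0.53 ± 0.52, adjusted p = 0.473) nor Ppargc1b (-0.01 ± 0.46, adjusted p = 0.999) passed between pGE2 and NoStim, on the log2 scale of pGE2 over NoStim. Tnf was lower with pGE2 than with DMSO but stayed above NoStim, at 235 ± 46.2 CPM in pGE2 wells, 1117 ± 82.8 CPM in DMSO wells and 142 ± 52.1 CPM in NoStim wells (0.72 ± 0.15 over NoStim, adjusted p = 4.25e-05).

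Other genes were lower in DMSO than in NoStim wells and stood higher with pGE2 than with DMSO. Gpr65 averaged 247 ± 85.8 CPM in pGE2 wells, 32.7 ± 13.8 CPM in DMSO wells and 289 ± 89.8 CPM in NoStim wells, and the difference from NoStim did not pass (-0.21 ± 0.18, adjusted p = 0.405). Fos averaged 144 ± 31.6, 30.9 ± 11.7 and 257 ± 40.8 CPM in these groups, so the pGE2 mean lay between the other two. Ctla2a, a cathepsin inhibitor gene, was lower in DMSO than in NoStim wells but stood above both groups with pGE2, at 350.0 ± 107, 29.9 ± 16.4 and 64.9 ± 26.8 CPM. A last set did not pass between DMSO and NoStim and rose with pGE2, such as Flrt3 (180.4 ± 38.8, 12.4 ± 8.11 and 9.59 ± 5.93 CPM) and Hilpda (109 ± 25.4, 8.52 ± 5.61 and 7.97 ± 6.77 CPM).

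**Figure D4:**
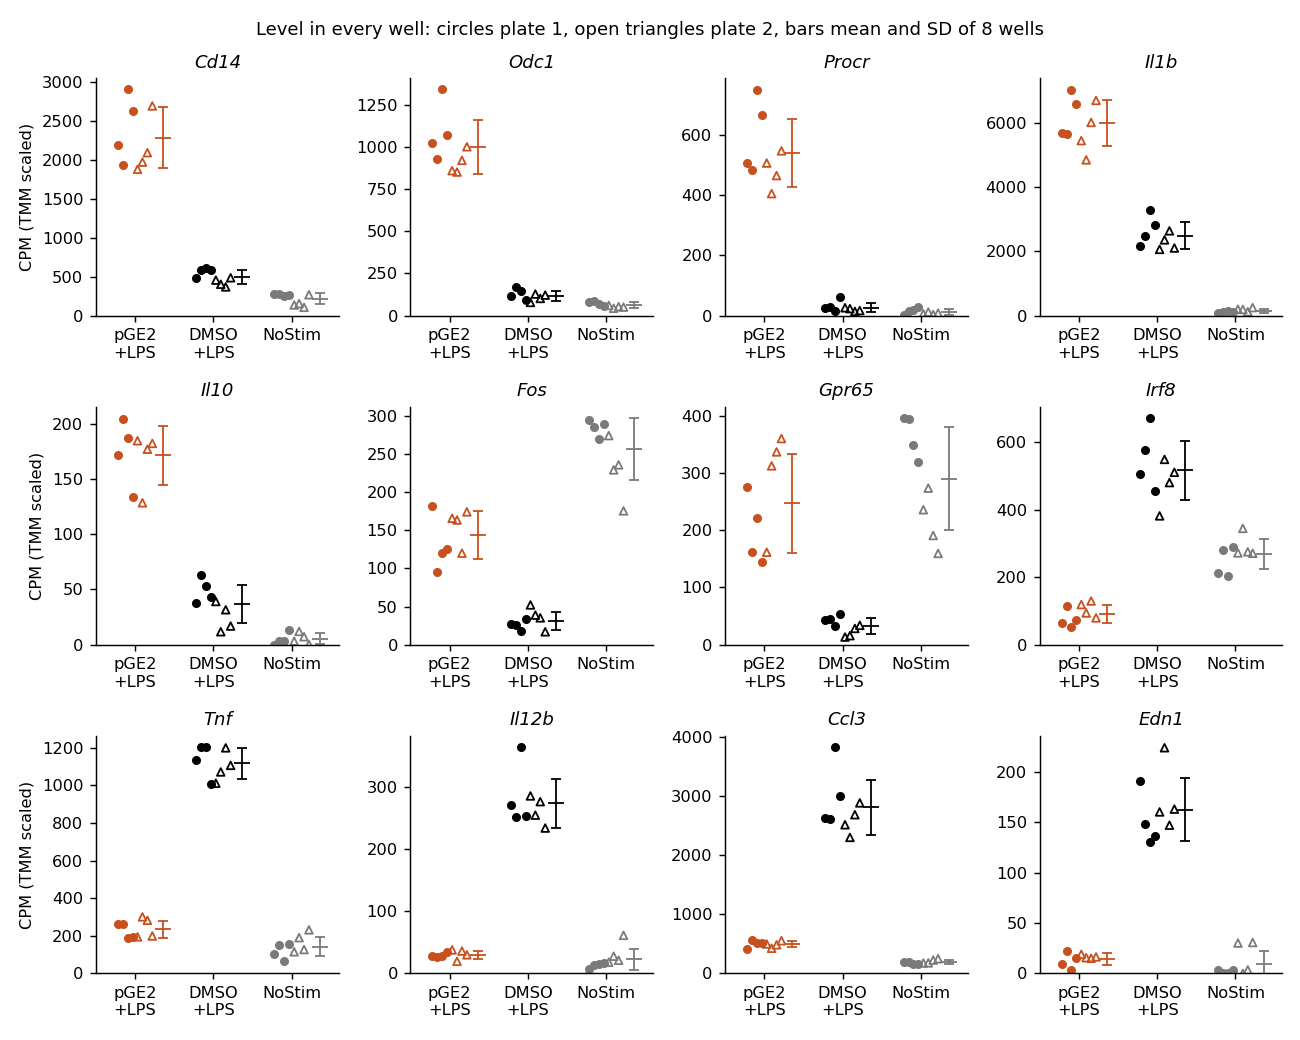
Level in CPM (vertical, from 0) of 12 genes in each of the 8 wells of the pGE2, DMSO and NoStim groups, with circles for plate 1, open triangles for plate 2 and bars for the mean and SD. Cd14, Odc1, Procr and Il10 stand highest with pGE2, Tnf, Il12b, Ccl3 and Edn1 stand below DMSO with pGE2, with Tnf and Ccl3 still above NoStim, and Fos lies between the other 2 groups.

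The 9 other compounds with LPS were set beside pGE2 to see where its levels stood among all treatments. Doses are not given, so the levels compare the wells as treated, and Halofuginone libraries were shallow, at 80196 to 136526 counts with 39.0% to 49.1% from Rn45s. Procr averaged 542 ± 113 CPM in pGE2 wells, and the highest mean under another compound was 30.8 CPM, with Baflo. pGE2 wells were higher than those of each of the 9 compounds for Procr, Dusp14, Thbs1, Odc1, Cd14, Flrt3, S1pr1, Gpr65, Il1b and Il1rn, each at an adjusted p under 0.05. These genes were chosen from the comparison with DMSO, which uses the same 8 pGE2 wells, so the calls are a description and no independent support, and Dusp14, Flrt3 and S1pr1 reached the filter only through pGE2. For comparison, of all tested genes pGE2 was higher in 6.09% against Dexa, 11.4% against Torin, 17.4% against tBHQ, 6.06% against Baflo, 5.76% against ZVAD, 9.53% against Caspase-1, 27.1% against Halofuginone, 12.9% against BrefA and 7.01% against Tunicamycin. With Tunicamycin, the next highest group for both, Cd14 averaged 726 ± 208 CPM and Odc1 204 ± 108 CPM. Tnf was lower with pGE2 than with each of the 9 compounds, whose means ran from 365 to 2450 CPM, and so was Atf3, with means from 107 CPM with BrefA to 502 CPM with Halofuginone. Edn1, Il12b, Ccl3 and Mtdh were lower than with 8 compounds, all but tBHQ. These lower calls use the same 8 pGE2 wells as the comparison with DMSO, in which the genes also fell. The lower calls too are a description and no independent support. Over all tested genes pGE2 was lower in 7.21% against Dexa, 12.9% against Torin, 15.1% against tBHQ, 7.52% against Baflo, 6.33% against ZVAD, 10.2% against Caspase-1, 18.9% against Halofuginone, 12.9% against BrefA and 9.31% against Tunicamycin.

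Some changes were not particular to pGE2 wells. Il10 averaged 162 CPM with Torin, and was not called different from pGE2 at an adjusted p under 0.05. Hilpda reached 103 CPM with Torin and was not called different there or with Halofuginone. Irf8 was lowest with Halofuginone (56.5 CPM), below the pGE2 wells, and was not called different between pGE2 and Dexa or BrefA. Mt1 was higher with Dexa (2160 CPM) than with pGE2 (1308 ± 207 CPM). Fos was higher with Halofuginone (462 CPM) and tBHQ than with pGE2.

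**Figure D5:**
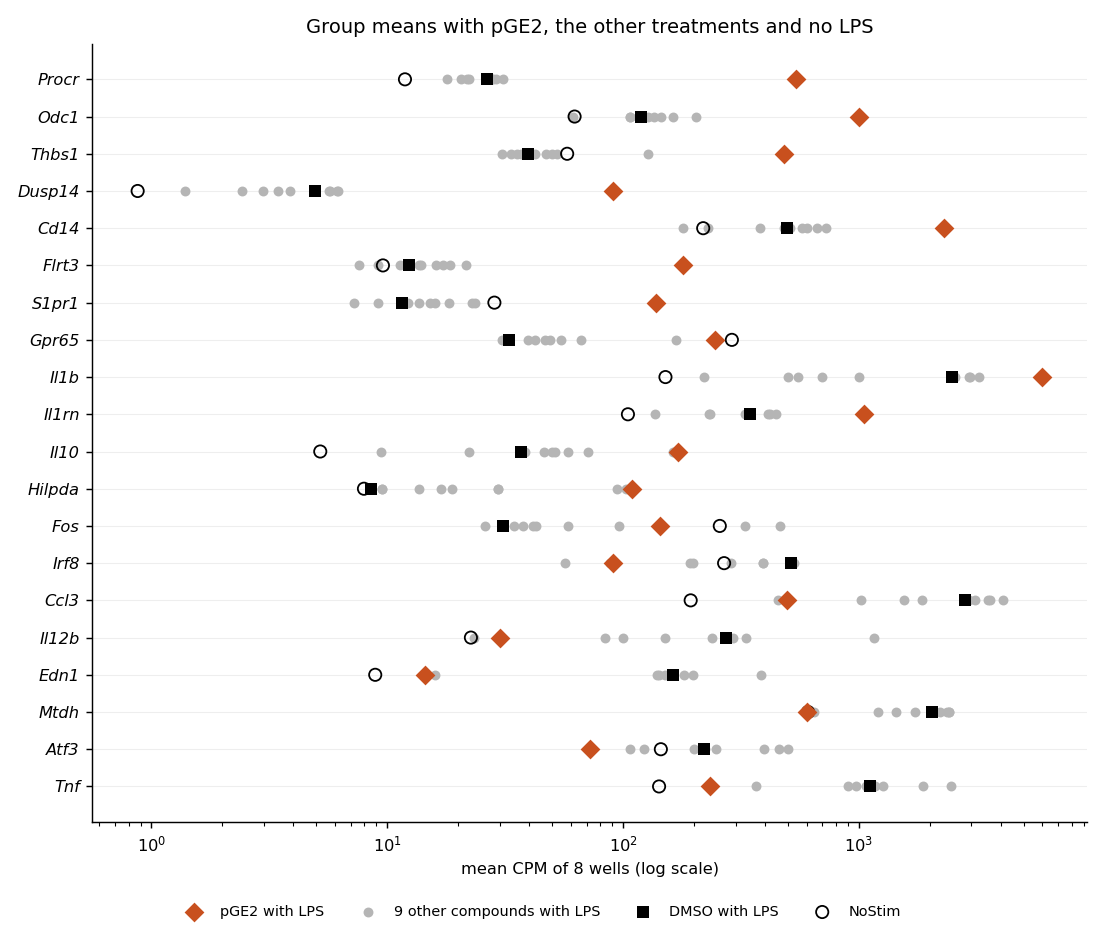
Mean CPM of 8 wells (horizontal, log scale) for 20 genes in wells with pGE2 (orange diamonds), the 9 other compounds (grey points), DMSO (black squares) and NoStim (open circles). For Procr, Odc1, Thbs1 and Cd14 the pGE2 diamond lies apart to the right of all other groups, while for Il10 and Hilpda another compound lies next to it.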

How the data were processed

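Counts per gene symbol were deposited by the authors for 96 libraries of transcript 3′ ends (SCRB-Seq with changes and Nextera, per the labels' protocols). Per the submitters' processing notes, reads were aligned to mm10 by BWA. Its version, the annotation, strand handling and any collapsing of PCR copies are not stated there, so counts may not be independent molecules and overlapping genes may share reads. All values are whole numbers, and library totals differ.

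From these counts, edgeR 4.0.16 in R 4.3.3 kept 4963 genes (filterByExpr on the 12 groups), scaled by TMM, and fitted group and plate to all 96 libraries with robust quasi-likelihood F tests, two-sided, adjusted by Benjamini-Hochberg over all tested genes with a threshold of 0.05. The SE is that of the fit. Levels are CPM with TMM factors, as mean and SD or as the lowest, median and highest of 8 wells. Depth was compared by exact permutation. Promoters came from RefSeq (3778 of 4963 tested symbols matched) and coordinates from GENCODE M21 (4743 matched). Scripts were tested on simulated data, with matplotlib 3.10.9 and Python 3.11.15 used for figures.

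Members, gene lists and tests were chosen with earlier results of these data known. The text names a subset of genes given by a rule: the 15 highest and 15 lowest fold changes of passing genes whose sign was shared by the plates and whose higher group averaged at least 30 CPM; for each list the 6 passing members with the largest changes and the 3 with the highest CPM that did not pass; all tested cyclic AMP response and prostaglandin genes; and a fixed set of genes such as Tnf and Il10 whatever their result. Alternatives were RLE scaling, no filter, a filter at 20 CPM, no plate term, single plates, each well letter left out, summed same-named wells, a replicate block, the 16 libraries alone, Rn45s and Lars2 left out, Halofuginone libraries and a Tunicamycin library left out, and DESeq2 1.42.0. Library sizes from tested genes, the plate 1 wells G left out and the Rn45s share as a covariate were added after seeing the data.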

Additional observations from a re-analysis of the deposited data

Results flagged for a closer look

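Of 99 sets of 8 wells checked for a single well far from the others (Dixon's test), 9 held such a well, and chance flags about 1 in 20. In pGE2 wells, Odc1 was highest in plate 1 well G at 1340 CPM, and Ptger4 was highest in plate 2 well E at 42.7 CPM. In DMSO wells, plate 1 well G had the highest Il12b (364.7 CPM), Ccl3 (3831 CPM) and Atf3 (308 CPM), and the lowest share of counts from Rn45s, at 9.43%. Without this well and the pGE2 well of the same name, 484 genes passed in place of 555, an alternative chosen after seeing the data. Other DMSO wells that stood apart were plate 1 well H for Procr (61.9 CPM) and plate 1 well E for Mxi1 (42.6 CPM), each the highest of its group. In NoStim wells, Il12b was highest in plate 2 well D at 61.4 CPM. In each of these genes except Ptger4 the pGE2 and DMSO wells still did not overlap.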

How the results depend on the processing

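The 555 calls became 367 on plate 1 alone (195 lower) and 255 on plate 2 alone (133 higher and 122 lower), where each group has 4 wells, and plate 2 alone gave 885 calls for DMSO over NoStim and 936 for pGE2 over NoStim, and the cause was not tested beyond the smaller number of wells. Leaving out a well letter gave 410 to 485 calls, the 16 libraries alone 738, RLE scaling 560, no filter 548, DESeq2 594 and same-named wells summed 496, all within 1.5 times of 555. The median log2 fold change of all tested genes was 0.029 under RLE. Of 90 passing genes named in the text, 0 changed sign in the 20 alternatives and 72 passed in each of them that tested the gene; 9 lost their call only on a single plate. Well letters were not taken to pair pGE2 with DMSO, because not every pair of wells with the same letter and plate correlated above 0.1 (-0.032 to 0.271, mean 0.0879, with a mean of -0.029 for different letters). Deviations were taken from the mean of each group on each plate. This ties the mean for different letters to that for the same letter, so it is no independent comparison. On plate 1 the letters E, G and H gave 0.202, 0.271 and 0.223, above every pair of different letters there, and on plate 2 the highest was 0.034. With the letter as a replicate block 602 genes passed, and 600 with plate and letter as the block. Of 840 list counts under the alternatives 774 stayed within 1.5 times. The depth limits low genes: 358 listed genes lay below the filter.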

Other observations

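Of 358 listed genes below the filter, 313 had a count, and 11 of these were higher and 2 lower with pGE2 when all 16022 genes with a count were tested with edgeR. In the same fit 286 of the 16022 genes were higher and 262 lower. The genes in this paragraph were chosen after their values were seen. Trem1, an amplifying receptor of myeloid cells, had 22 counts in pGE2 libraries, 0 in DMSO and 1 in NoStim (adjusted p = 6.30e-05). Adora3, another adenosine receptor gene, had 17 counts in pGE2, 1 in DMSO and 2 in NoStim (adjusted p = 0.0108). Pde3b, a phosphodiesterase gene, had 41 counts in pGE2, 10 in DMSO and 52 in NoStim (adjusted p = 0.0206). Stat4, which carries interleukin 12 signals, had 40 counts in pGE2, 8 in DMSO and 9 in NoStim (adjusted p = 0.0152), and Inhba, an activin subunit gene, had 14, 1 and 0 (adjusted p = 0.0364). Fpr1, another formyl peptide receptor gene, had 0 counts in pGE2 libraries, 11 in DMSO and 3 in NoStim (adjusted p = 0.00536).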
